A study of Arabidopsis thaliana with 27 samples.

Results

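Among 27313 Arabidopsis genes measured in root tips, 74 were reduced after 180 min of estradiol in the line that induces AXR3-1, a dominant repressor of auxin-induced transcription, and stayed close to their mock level both in the line that induces ΔMP, a dominant activator of the same pathway, and in Col-0. The genes were selected on their level in TPM (the share of all transcripts, corrected for length and scaled to a fixed total), summed per gene and averaged over 3 libraries per group, with 0.5 TPM added to each mean. A gene was taken when its ratio of 180 min of estradiol to mock was at most 0.56 in AXR3-1 and lay between 75% and 133% in both ΔMP and Col-0, and when its mock level in AXR3-1 was at least 2 TPM. These ratios chose the genes, so they are given below as a description with no test. For comparison, 111 genes met the same limits in AXR3-1 and Col-0 but exceeded 133% of their mock in ΔMP, and these are called genes lowered by AXR3-1 and raised by ΔMP. The libraries of 90 min of estradiol took no part in the choice, and differences between lines at 90 min were tested.

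The data come from 5-d-old seedlings of 2 inducible lines, pG1090::XVE ≫ AXR3-1 and, labelled MP in the deposited samples, pG1090::XVE ≫ ΔMP, together with the wild type Col-0. Root tips were sampled after 90 min of mock (DMSO), and after 90 or 180 min of 2.5 μM estradiol, with 3 libraries (A, B and C) in each of the 9 groups. XVE is a chimeric transcription factor made throughout the plant from the G1090 promoter, and it turns on the transgene once estradiol binds it. AXR3-1 is IAA17, an Aux/IAA protein, made resistant to degradation, and ΔMP is a truncated ARF5/MP that Aux/IAA proteins cannot repress. Col-0 carries neither transgene but received the same estradiol, and no mock of 180 min was among the samples, so a ratio of 180 min to mock also holds the extra time. The sources do not say whether the 3 libraries of a group came from separate cultures, and p-values measure only the spread between them.

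In the nuclear auxin pathway, Aux/IAA proteins bind ARF transcription factors at auxin-responsive genes and hold transcription down until auxin triggers their degradation. A stabilized Aux/IAA keeps that block in the presence of auxin, and an ARF without its Aux/IAA-binding part drives transcription without auxin. In roots the pathway controls cell elongation, gravitropism, lateral root formation and the growth of root hairs, the tubular outgrowths of epidermal cells called trichoblasts.

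The libraries held 13634030 to 34272457 assigned read pairs (median 20071325). IAA17, whose reads cannot be told from those of the AXR3-1 transgene, averaged 142 TPM in the mock, 1185 TPM at 90 min and 2538 TPM at 180 min in AXR3-1. ARF5, whose reads likewise include those of ΔMP, averaged 9.20, 928 and 1395 TPM at the same times in ΔMP. Of the 74 genes, 70 passed the filter on low counts that the tests require. The other 4 (AT1G06149, AT1G22890, AT3G45242 and the chloroplast gene ATCG00070) had 14, 20, 3 and 13 estimated read pairs over the 3 AXR3-1 mock libraries, and 5, 8, 1 and 3 at 180 min. Their ratios rest on these few pairs. A RefSeq entry was found for 69 of the 74 genes and a gene symbol for 30.

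The 300 bases before the annotated start of 6 members are shown because the words that ARFs and root hair regulators bind were counted in such windows. They are AT3G25930, which had the highest level of the 74 genes, AT5G37540, sks15 and UMAMIT4, which include some of the deepest falls, and RSH4 and AT2G47530, the 2 members with a root hair element (RHE). All but UMAMIT4 hold TGTCTC or TGTCGG, against 15 of the 69 members with a window, so those shown are not typical. EXL4, which fell further than sks15, holds neither word and is not shown. Sequences are from RefSeq TAIR10.1, 5′ to 3′ on the strand of the gene, and capitals mark matches on either strand to TGTCTC or TGTCGG (AuxRE words bound by ARFs, the second read as CCGACA on the other strand) or to the RHE.
AT3G25930 (chr3:9494303-9494602, minus strand): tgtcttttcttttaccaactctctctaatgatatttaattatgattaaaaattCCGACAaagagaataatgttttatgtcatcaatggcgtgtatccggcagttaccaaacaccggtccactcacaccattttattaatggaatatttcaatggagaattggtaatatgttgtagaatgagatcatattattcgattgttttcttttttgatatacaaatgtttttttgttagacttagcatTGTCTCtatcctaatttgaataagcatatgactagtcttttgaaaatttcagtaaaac
AT5G37540 (chr5:14912359-14912658, plus strand): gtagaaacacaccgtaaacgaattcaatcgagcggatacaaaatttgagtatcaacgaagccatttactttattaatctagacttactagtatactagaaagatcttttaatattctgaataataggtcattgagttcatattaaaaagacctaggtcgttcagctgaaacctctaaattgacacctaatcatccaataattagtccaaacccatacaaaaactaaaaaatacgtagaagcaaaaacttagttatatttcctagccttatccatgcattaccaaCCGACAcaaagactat
sks15 (chr4:17497277-17497576, minus strand): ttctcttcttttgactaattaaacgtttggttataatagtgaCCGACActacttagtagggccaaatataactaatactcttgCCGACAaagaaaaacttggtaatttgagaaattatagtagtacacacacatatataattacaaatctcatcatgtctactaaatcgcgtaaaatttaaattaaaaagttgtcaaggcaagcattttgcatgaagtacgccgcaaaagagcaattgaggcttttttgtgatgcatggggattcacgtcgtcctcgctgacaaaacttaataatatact
UMAMIT4 (chr3:6236140-6236439, minus strand): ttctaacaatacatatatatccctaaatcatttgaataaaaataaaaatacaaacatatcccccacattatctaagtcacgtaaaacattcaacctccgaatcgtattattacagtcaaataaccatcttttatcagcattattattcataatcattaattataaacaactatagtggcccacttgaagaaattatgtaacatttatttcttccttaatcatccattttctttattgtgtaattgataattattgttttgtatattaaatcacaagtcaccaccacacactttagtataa
RSH4 (chr1:10984763-10985062, plus strand): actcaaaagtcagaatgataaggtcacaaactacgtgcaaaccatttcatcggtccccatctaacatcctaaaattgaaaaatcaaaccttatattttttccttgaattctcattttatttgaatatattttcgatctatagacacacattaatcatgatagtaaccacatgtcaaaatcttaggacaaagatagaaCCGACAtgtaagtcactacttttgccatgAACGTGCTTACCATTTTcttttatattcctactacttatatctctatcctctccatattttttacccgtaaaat
AT2G47530 (chr2:19503871-19504170, plus strand): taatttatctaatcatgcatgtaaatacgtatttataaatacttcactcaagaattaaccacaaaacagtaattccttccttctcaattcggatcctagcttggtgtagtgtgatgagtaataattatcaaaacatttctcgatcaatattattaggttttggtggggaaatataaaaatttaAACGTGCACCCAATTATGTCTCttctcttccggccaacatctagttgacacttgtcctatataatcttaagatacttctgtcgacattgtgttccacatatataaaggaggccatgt

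In AT2G47530 the RHE (117 to 102 bases before the start) directly adjoins TGTCTC (101 to 96 bases before it), and the capitals run on from the RHE into TGTCTC without a gap. The window of AT3G25930 holds TGTCTC 58 to 53 bases and TGTCGG 247 to 242 bases before the start, whereas the window of UMAMIT4 holds none of the words searched. Over the 69 members with a window, 9 (13.0%) held TGTCTC, against 12.8% of the windows of 19388 tested genes, and 7 (10.1%) held TGTCGG, against 5.41%. Either word was present in 15 members (21.7%), against 17.5% of tested genes. In the 110 windows of genes lowered by AXR3-1 and raised by ΔMP the share was 40.0%. CACGTG, the G-box, was present in 4 members (5.80%, against 7.89%), 2 times in the window of GBF3, and the RHE in 2 (2.90%, against 0.954%). A match is a run of letters, and binding was not measured.

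At 180 min the ratio to mock in AXR3-1 had a median of 0.48 over the 74 genes, with a lowest value of 0.197 in UMAMIT4. The rule put the upper end at 0.56, and 42 of the genes were at or below 0.5. The ratio at the same time had a median of 1.1 in ΔMP and 0.941 in Col-0. In 70 of the 74 genes all 3 AXR3-1 libraries of 180 min lay below all 3 mock libraries, against 19.0% of tested genes, a share from which nothing is read because the rule used this contrast. The libraries overlapped in AT5G09461, AT5G06190, AT2G35290 and AT3G45242. Mock levels of AXR3-1 were between 75% and 133% of those of Col-0 in 67 of the 74 genes (group means plus 0.5 TPM). In the other 7 they were above 133%, up to 8.17 times the Col-0 level. The AXR3-1 mock is also the divisor of the ratio that chose the genes, and its part in these falls was not tested. In whole root tips, fewer cells of a type and less RNA per cell cannot be told apart, and this holds for every value below.

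**Figure D1:**
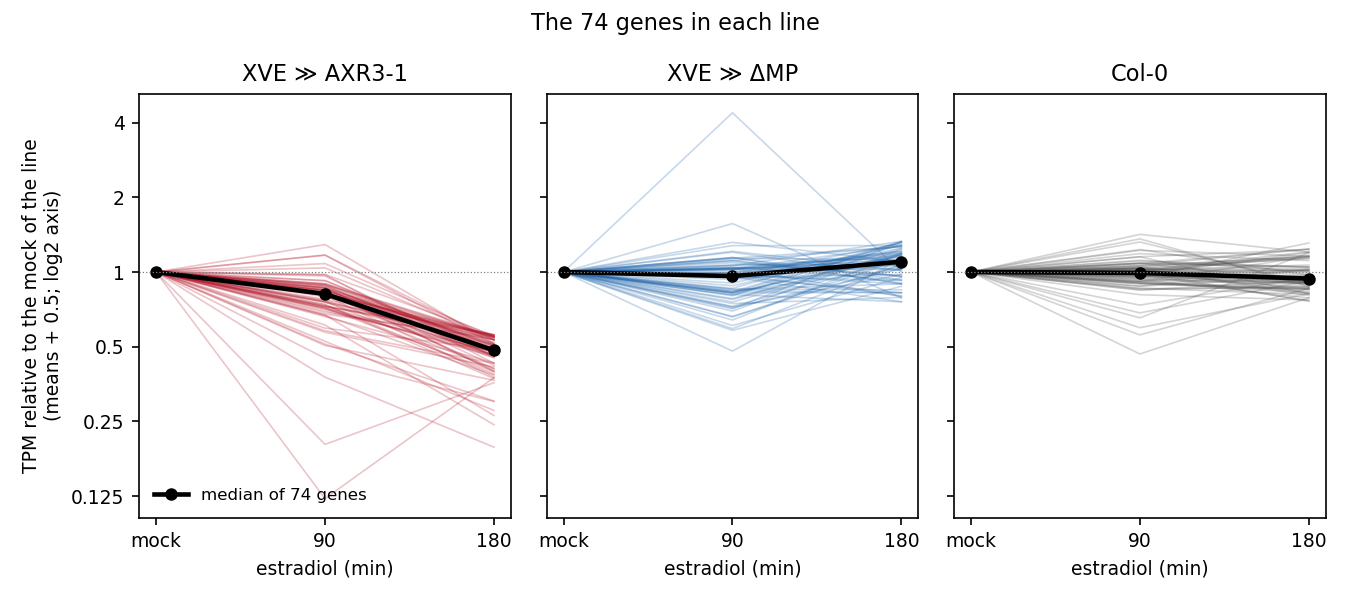
Each thin line is 1 of the 74 genes, with the TPM relative to the mock of the same line (group means of 3 libraries plus 0.5, log2 axis) at mock, 90 and 180 min of estradiol, and the black line is the median. The AXR3-1 medians are 0.82 at 90 min and 0.48 at 180 min, the ΔMP medians 0.963 and 1.1, and the Col-0 medians 0.992 and 0.941. The 2 lines that leave the rest at 90 min downwards in AXR3-1 are AT3G45242 and AT1G06149, and the 1 upwards in ΔMP is AT3G45242, both genes with few read pairs.

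At 90 min the median ratio to mock in AXR3-1 was 0.82. Of the 74 genes, 7 were already at or below 0.56, 20 lay between 0.56 and 0.75, 42 lay from 0.75 to 1, and 5 were at or above 1. From 90 to 180 min 72 became lower still, values that the choice of genes with low 180-min levels favours. At 90 min the median share of the later fall that was already present was 39.0%, and 25 genes were past the midpoint. The 111 genes lowered by AXR3-1 and raised by ΔMP had median ratios of 0.67 at 90 min and 0.42 at 180 min. At 90 min 33.3% of these still had at least 0.75 of the mock level, against 63.5% of the 74 genes. Both sets were chosen on the 180-min values, and the difference between them was not tested.

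The members of the auxin pathway itself included 2 Aux/IAA repressor genes, a repressor-type ARF, a kinase that acts on auxin transport, and 4 genes related to auxin by family or substrate. IAA13, a close relative of the MP partner IAA12, had 47.9, 54.0 and 45.1 TPM in the AXR3-1 mock, 37.6, 34 and 35.0 TPM at 90 min and 28.1, 27.1 and 24.6 TPM at 180 min. The 3 times do not overlap in AXR3-1. At 90 min IAA13 had 49.8, 51.4 and 53.4 TPM in ΔMP, and 46.6, 45.0 and 48.0 TPM in Col-0, so AXR3-1 lay below both. Its log2 fold change in AXR3-1 at 90 min was −0.38 relative to Col-0 (SE 0.07, adjusted p = 0.00088 by the quasi-likelihood test of edgeR, n = 3 each) and −0.51 relative to ΔMP (SE 0.07, adjusted p = 1.7e-06). The gene span of IAA13 overlaps that of AT2G33300 on the other strand over 1176 bases. Reads were assigned to coding sequences, and IAA13 shared only 0.70% of its 31-base coding words, with IAA12 as the partner found. The counting is not stated to use strand, and whether noncoding reads of AT2G33300 were assigned to IAA13 was not tested.

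IAA10, another Aux/IAA gene, had 6.09, 7.58 and 7.23 TPM in the AXR3-1 mock and 3.2, 2.91 and 3.07 TPM at 180 min. At 90 min it differed from Col-0 by a log2 fold change of −0.45 (SE 0.16, adjusted p = 0.13) and was not called. The call against ΔMP (−0.46, adjusted p = 0.044) was lost without any 1 of AXR3-1 A, B or C or of ΔMP B or C, and also with DESeq2, without TMM scaling, without the filter on low counts and with the letter as a block (adjusted p up to 0.17). IAA10 shares 30% of its 31-base words with AT1G04105, which overlaps it on the other strand, so its counts are uncertain. ΔMP at 180 min stood at 1.3295 times its mock, just inside the upper limit of the rule.

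ARF16, a member of the group of ARFs that mostly repress transcription and a target of the microRNA miR160, was lower in AXR3-1. It had 21.3, 21.0 and 19.5 TPM in the mock, 17.6, 17.8 and 18.5 TPM at 90 min and 10.6, 10.3 and 8.64 TPM at 180 min. At 90 min ΔMP had 25.7, 24.7 and 26.2 TPM and Col-0 had 23.0, 23.9 and 22.4 TPM, and the lines did not overlap. The log2 fold change in AXR3-1 was −0.37 relative to Col-0 (SE 0.06, adjusted p = 0.00013) and −0.51 relative to ΔMP (SE 0.06, adjusted p = 7.1e-08). In ΔMP it was 0.14 relative to Col-0 (adjusted p = 0.12).

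WAG1 codes for an AGC kinase that phosphorylates PIN auxin transporters. In AXR3-1 it had 6.17, 6.44 and 5.48 TPM in the mock, 2.99, 3.11 and 3.6 TPM at 90 min and 2.06, 2.53 and 2.03 TPM at 180 min. At 90 min ΔMP had 9.67, 8.12 and 9.56 TPM and Col-0 had 6.97, 5.99 and 6.3 TPM. All 3 lines were separate at that time, with AXR3-1 lowest and ΔMP highest. The log2 fold change was −0.99 in AXR3-1 (SE 0.12, adjusted p = 1.9e-06) and 0.52 in ΔMP (SE 0.11, adjusted p = 0.00093), both relative to Col-0. WAG2, its closest paralogue, fell outside the rule by a ΔMP ratio of 1.34 at 180 min, just above the upper limit, and had a log2 fold change of −1.56 in AXR3-1 relative to Col-0 at 90 min (adjusted p = 3.3e-13).

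Among the genes related to auxin by family or substrate, AT2G46690 (SAUR32, of the small auxin up RNA family) had 96.1, 122 and 102 TPM in AXR3-1, 121, 128 and 115 TPM in ΔMP, and 112, 112 and 113 TPM in Col-0 at 90 min (AXR3-1 relative to Col-0, adjusted p = 0.90). In AXR3-1 it averaged 0.558 of the mock at 180 min. In ΔMP it was the member closest to the lower limit, at 0.759. MES17, a methyl esterase that can release auxin from its methyl ester, had a ratio of 0.975 at 90 min and 0.429 at 180 min in AXR3-1. AT1G23160, of the GH3 family that joins amino acids to hormones, and AT2G35290 (SAUR79) are included here after their values were seen. AT2G35290 had 2.51, 4.14 and 4.66 TPM in the AXR3-1 mock and 2.68, 1.82 and 0.975 TPM at 180 min, which overlap. AT1G23160 had 7.15, 7.06 and 7.52 TPM in the AXR3-1 mock, 7.69, 6.61 and 6.59 TPM at 90 min and 3.13, 3.04 and 2.98 TPM at 180 min, so that most of its decline came after 90 min. At 90 min it was higher in AXR3-1 than in ΔMP (log2 fold change 0.31, adjusted p = 0.0060), a call lost without AXR3-1 A (adjusted p = 0.13).

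At 90 min, 26 of the 70 tested members were lower in AXR3-1 than in Col-0 at an adjusted p of at most 0.05 (37.1%), against 2.64% of all 19530 genes tested. The only member called higher was MRN1, against 1.74% of all genes, and 43 were not called. The median log2 fold change was −0.35 over the members and 0.01 over all genes. In 42 members (60.0%) the 3 AXR3-1 libraries lay below the 3 Col-0 libraries, against 9.66% of all genes, and this included each of the 26. In the mock these 26 stood between 0.81 and 1.1 times the Col-0 level. Most of the differences were small, and UMAMIT4 alone exceeded a log2 fold change of 1 in size. Of the genes lowered by AXR3-1 and raised by ΔMP, 73 of 109 tested (67.0%) were lower, with a median of −0.58. The members were picked on falls in AXR3-1 at 180 min, in libraries of the same line and experiment.

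**Figure D2:**
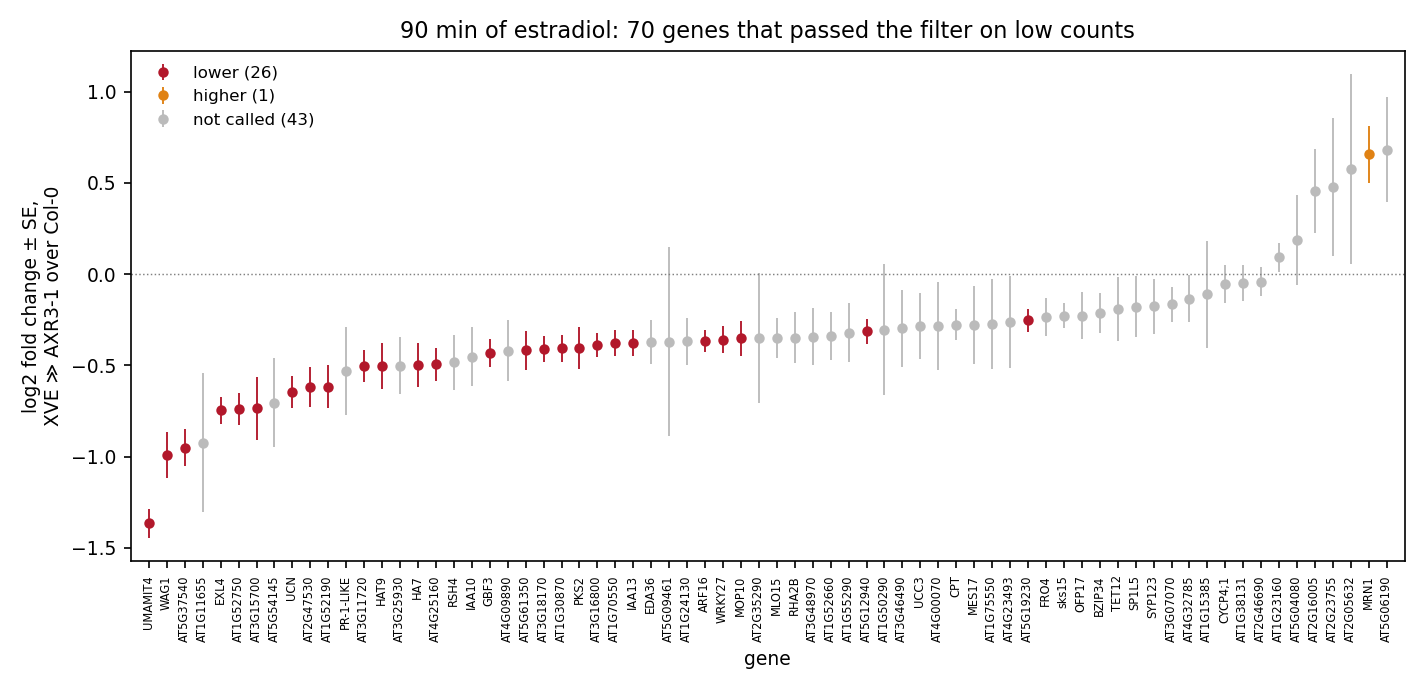
The log2 fold change of AXR3-1 relative to Col-0 at 90 min of estradiol is shown for the 70 tested members, ordered from lowest to highest, with bars of 1 SE. Red points were called lower (26), the orange point is MRN1, called higher, and grey points were not called (43). UMAMIT4 stands lowest at −1.37, and most members lie between 0 and −0.5.

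UMAMIT4 belongs to a family of membrane proteins that move amino acids out of cells. In AXR3-1 it had 42.7, 39.5 and 39.6 TPM in the mock, 15.2, 14.4 and 15.4 TPM at 90 min and 7.21, 7.84 and 7.75 TPM at 180 min, so that 77.6% of its fall was present at 90 min. At 90 min ΔMP had 68.4, 69.9 and 72.8 TPM and Col-0 had 38.1, 44.0 and 44.3 TPM. The libraries of a group lay close together, and the groups were far apart. The log2 fold change in AXR3-1 was −1.37 relative to Col-0 (SE 0.08, adjusted p = 7.3e-14) and −2.13 relative to ΔMP (SE 0.08, adjusted p = 3.7e-20). In ΔMP it was 0.77 relative to Col-0 (SE 0.07, adjusted p = 1.3e-09), from a mock level that was already 1.37 times that of Col-0, so the ratio to its own mock was 1.32 at 90 min and 1.1 at 180 min.

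EXL4, an exordium-like gene of a family tied to cell expansion, and AT5G37540, an aspartyl protease gene, had fallen early too. EXL4 had 59.0, 55.9 and 54.4 TPM in AXR3-1, 96.6, 103 and 99.0 TPM in ΔMP, and 93.0, 98.8 and 96.1 TPM in Col-0 at 90 min. Its mean ratio to mock in AXR3-1 was 0.612 at 90 min and 0.243 at 180 min. The log2 fold change relative to Col-0 was −0.75 (SE 0.07, adjusted p = 2.4e-08). AT5G37540 had 13.1, 11.7 and 13.9 TPM in AXR3-1, 25.7, 29.8 and 31.4 TPM in ΔMP, and 23.3, 22.1 and 30.8 TPM in Col-0 at 90 min. AXR3-1 lay below the other lines in every library of both genes. AT5G37540 had a log2 fold change relative to Col-0 of −0.95 (SE 0.10, adjusted p = 1.1e-07) and ratios to mock of 0.449 and 0.301 at 90 and 180 min.

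**Figure D3:**
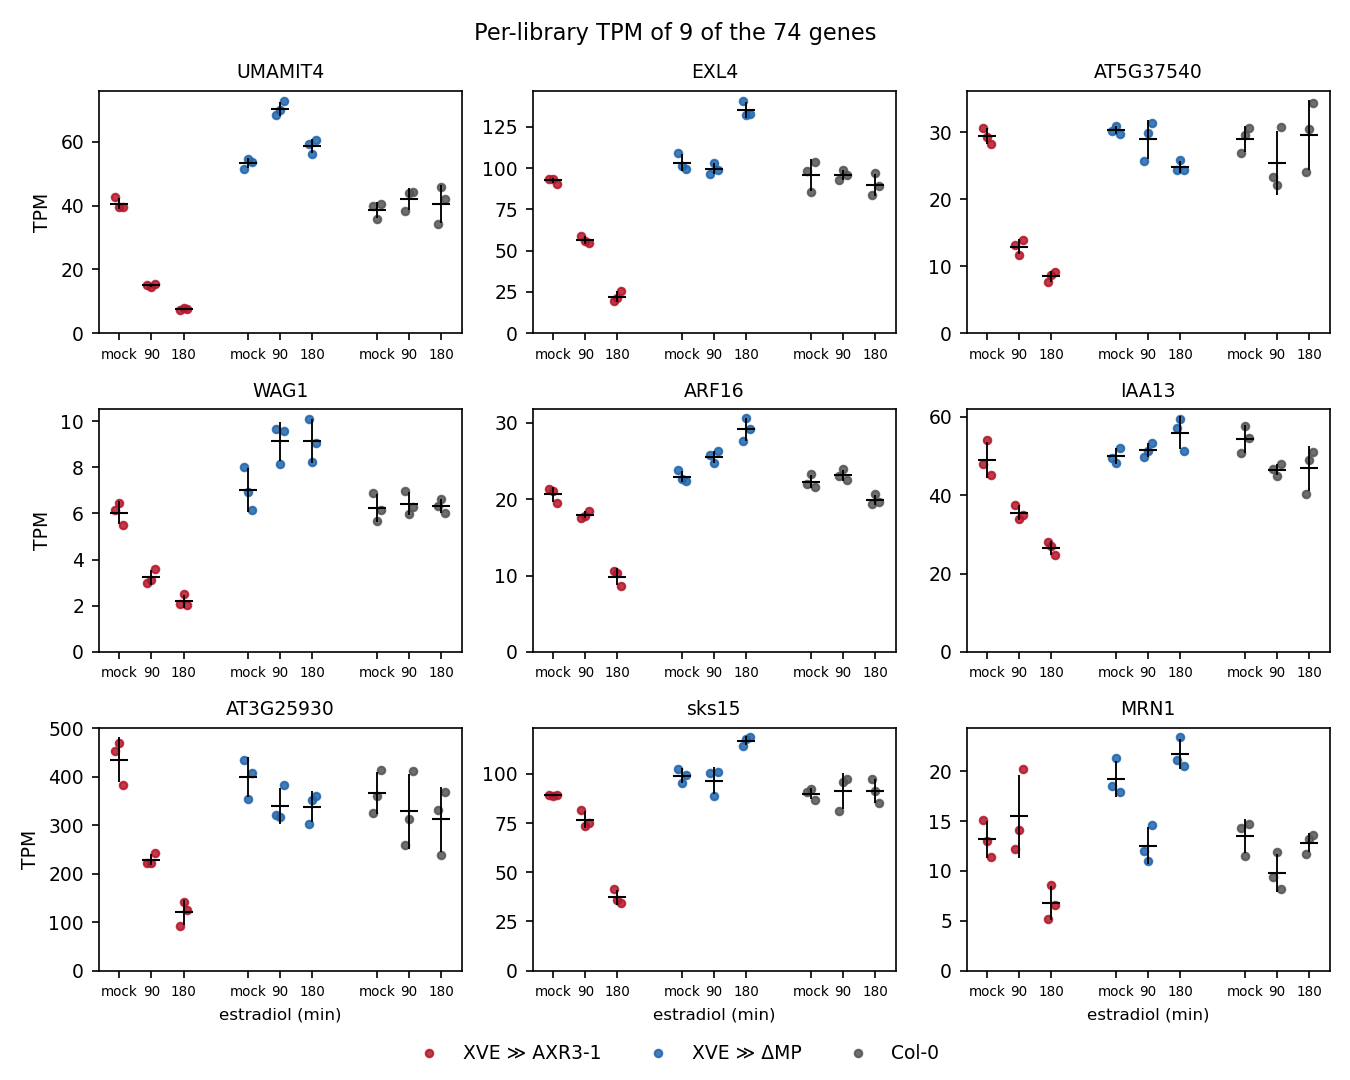
TPM of each library (points), with mean and SD of the 3 libraries (black), is plotted for 9 members in XVE ≫ AXR3-1, XVE ≫ ΔMP and Col-0 after mock, 90 and 180 min of estradiol, each panel with its own axis from 0. In AXR3-1 UMAMIT4 and WAG1 show a large drop by 90 min. ARF16 and sks15 show most of it later, and MRN1 is as high at 90 min as in the mock.

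The remaining members among the 10 with the lowest adjusted p were 6 genes of different kinds, each with libraries of AXR3-1 below those of Col-0. AT1G52750, of the alpha/beta hydrolases, had 10.0, 8.37 and 9.33 TPM in AXR3-1 and 13.9, 16.2 and 16.1 TPM in Col-0, with a log2 fold change of −0.74 (SE 0.09, adjusted p = 6.3e-07). The AGC kinase gene UCN, which restrains growth in ovules and petals, had 6.18, 7.01 and 6.90 TPM in AXR3-1 and 11.1, 9.61 and 10.7 TPM in Col-0, or −0.65 (SE 0.09, adjusted p = 8.9e-06). The other 4 lay between −0.50 and −0.37. They were AT3G11720 (−0.50), of a lipid transfer family, AT3G18170 (−0.41), a glycosyltransferase of family 61, the protein phosphatase 2C gene AT3G16800 (−0.39), and ARF16, described above. Beside WAG1 and UCN, the U-box kinase gene AT4G25160, named after its values were seen, was lower too (−0.49, adjusted p = 0.00064), and so was AT1G30870, a peroxidase gene with 59.6, 54.2 and 68.7 TPM in AXR3-1 and 73.4, 84.6 and 82.8 TPM in Col-0 (−0.41, adjusted p = 0.00053).

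GBF3, which binds the G-box, had 16.8, 18.4 and 18.4 TPM in AXR3-1 and 26.1, 23.1 and 23.6 TPM in Col-0 at 90 min (log2 fold change −0.43, adjusted p = 0.00038). It was named after its values were seen, as was HAT9, a homeodomain-leucine zipper gene (−0.50, adjusted p = 0.015). WRKY27 had −0.36 (adjusted p = 0.0027), and in Col-0 it was near the limit of the rule, with 0.767 of the mock at 180 min. PKS2, a phytochrome kinase substrate that acts in phototropism, had −0.40 (adjusted p = 0.041). The call of GBF3 held without each library in turn and with DESeq2 and limma, whereas those of the other 3 did not. HAT9 was lost without AXR3-1 A or Col-0 B (adjusted p up to 0.19) and WRKY27 without Col-0 C (0.055). PKS2 was lost without AXR3-1 B or C or any 1 of the Col-0 libraries (up to 0.17), and with DESeq2, without TMM scaling, without the filter and in a fit of the 9 libraries of 90 min alone.

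The most abundant members were AT3G25930, AT5G19230, AT2G46690, EXL4 and sks15. AT3G25930 codes for a protein of the adenine nucleotide alpha hydrolase family, and it had 454, 470 and 382 TPM in the AXR3-1 mock, 221, 223 and 242 TPM at 90 min and 92.3, 143 and 126 TPM at 180 min. At 90 min ΔMP had 322, 316 and 383 TPM and Col-0 had 260, 314 and 413 TPM. The AXR3-1 libraries lay below those of both lines, but Col-0 spread widely, and the difference from Col-0 was not called (log2 fold change −0.50, SE 0.15, adjusted p = 0.060). Against ΔMP it was called (−0.49, adjusted p = 0.031), but not without AXR3-1 A or B, without ΔMP B or C, or with DESeq2 (adjusted p up to 0.16). AT5G19230, a GPI-anchored glycoprotein gene, had 180, 197 and 206 TPM in AXR3-1, 243, 262 and 276 TPM in ΔMP, and 219, 225 and 255 TPM in Col-0 at 90 min. It was lower than in Col-0 (−0.25, adjusted p = 0.011), a call lost without AXR3-1 A or Col-0 C and with limma (adjusted p up to 0.11).

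sks15, of the SKU5-similar multicopper oxidase-like family, had 89.1, 88.5 and 89.5 TPM in the AXR3-1 mock, 81.6, 73.4 and 75.2 TPM at 90 min and 41.5, 35.8 and 34.3 TPM at 180 min. Most of this difference appeared after 90 min, when the ratio to mock was 0.863. AXR3-1 was lower than ΔMP at 90 min (log2 fold change −0.31, SE 0.07, adjusted p = 0.0015), whereas the difference from Col-0 was not called (−0.23, adjusted p = 0.054). AT5G12940, a leucine-rich repeat protein gene, had 79.3, 73.7 and 69.7 TPM in AXR3-1, 118, 112 and 112 TPM in ΔMP, and 89.2, 99.0 and 91.3 TPM in Col-0 at 90 min. The 3 lines were separate, with ΔMP higher than Col-0 by a log2 fold change of 0.32 (adjusted p = 0.0014) and AXR3-1 lower by −0.31 (adjusted p = 0.0038). The ΔMP mock of AT5G12940 was already 1.17 times that of Col-0. Its ratio to mock at 90 min was 1.14 in ΔMP and 1.08 in Col-0.

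Several members with a symbol had deep falls at 180 min that were not called against Col-0 at 90 min. MLO15, of the MLO family of membrane proteins, had 25.2, 20.2 and 17.0 TPM in the AXR3-1 mock and 6.59, 8.47 and 9.45 TPM at 180 min. EDA36 (SHM5, of the serine hydroxymethyltransferase family) had 8.70, 8.26 and 7.54 TPM in the mock and 2.43, 3.41 and 2.76 TPM at 180 min. Their ratios were 0.407 and 0.388. At 90 min relative to Col-0 MLO15 had −0.35 (adjusted p = 0.070) and EDA36 had −0.37 (adjusted p = 0.087). The nitrate transporter gene AT1G52190 (NPF1.2), included after its values were seen, had a lower ratio at 180 min (0.264) than any of these, and was called at 90 min (−0.62, adjusted p = 0.00075).

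Relative to ΔMP at 90 min, 28 of the 70 members were lower in AXR3-1, against 6.73% of all genes, and 7 were higher, against 5.67%. The median log2 fold change was −0.31. This comparison uses the same AXR3-1 libraries as the comparison with Col-0. Of the genes raised by ΔMP, 80 of 109 were lower and 4 were higher, with a median of −0.80. Set side by side, EXL4 had a log2 fold change of −0.84 relative to ΔMP and −0.75 relative to Col-0, AT5G37540 had −1.13 and −0.95, WAG1 had −1.51 and −0.99, and EDA36 had −0.55 (adjusted p = 0.0010) and −0.37 (not called). AT3G48970, a metal-binding protein gene at the limit of the rule, had 10.8, 9.32 and 9.54 TPM in AXR3-1 and 13.7, 15.1 and 15.9 TPM in ΔMP (−0.59, adjusted p = 0.0048).

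Between ΔMP and Col-0, a comparison that shares the Col-0 libraries with the first, 14 of the 70 members were lower in ΔMP at 90 min (20.0%, against 4.25% of all genes) and 5 were higher (7.14%, against 5.19%), although at 180 min the rule held ΔMP near its mock. The median over the members was −0.01. Among the genes raised by ΔMP at 180 min, 6 of 109 were lower and 50 were higher at 90 min. All 19 called members are named here, most of them after their values were seen. The 5 higher were UMAMIT4, WAG1, AT5G12940, the RING ubiquitin ligase gene RHA2B and AT2G16005, of a lipid recognition family. RHA2B had 55.6, 41.4 and 47.5 TPM in ΔMP and 38.1, 28.2 and 28.5 TPM in Col-0 (log2 fold change 0.55, adjusted p = 0.0025). The ΔMP mocks of RHA2B and AT2G16005 were already 1.37 and 1.35 times those of Col-0. AT2G16005 (log2 fold change 1.03, adjusted p = 0.00098) stood at 0.823 of its mock in ΔMP and at 0.558 of its mock in Col-0 at 90 min, so it was reduced less in ΔMP rather than raised.

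Most of the 14 lower genes had a dip in ΔMP at 90 min that was no longer there at 180 min. The exceptions were AT1G38131, at 0.824 of its mock at 90 min and 0.827 at 180 min, and AT3G16800, at 0.998 and 1.2. Their ratio of 90 min to mock in ΔMP had a median of 0.72 (0.480 to 0.998), and their ΔMP mock stood between 0.81 and 1.17 times the Col-0 mock. UCC3, a uclacyanin of the blue copper proteins, had 11.6, 10.6 and 12.5 TPM in the ΔMP mock, 5.01, 5.38 and 5.48 TPM at 90 min and 13.7, 11.3 and 14.5 TPM at 180 min. All 3 libraries of 90 min lay below every other ΔMP library. At 90 min AXR3-1 had 8.72, 8.27 and 13.7 TPM and Col-0 had 9.69, 13.3 and 13.7 TPM. In ΔMP relative to Col-0 this was a log2 fold change of −1.18 (SE 0.19, adjusted p = 4e-05), and AXR3-1 was higher than ΔMP by 0.90 (SE 0.19, adjusted p = 0.0012).

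FRO4, a gene of the ferric reductase family that reduces metal ions at the root surface, had 8.37, 9.63 and 7.99 TPM in the ΔMP mock, 5.91, 6.11 and 7.79 TPM at 90 min and 9.81, 10.8 and 10.5 TPM at 180 min. Col-0 had 10.7, 11.4 and 11.6 TPM at 90 min, all above ΔMP, and the log2 fold change was −0.79 (SE 0.10, adjusted p = 2e-06). FRO4 shares 14.3% of its 31-base words with FRO5. AT1G55290 (F6'H2), which makes a precursor of coumarins, the phenolics that roots release to take up iron, had 3.04, 4.10 and 3.1 TPM in the ΔMP mock, 1.47, 1.91 and 2.06 TPM at 90 min and 3.83, 3.36 and 3.97 TPM at 180 min. Relative to Col-0 at 90 min the log2 fold change was −0.99 (SE 0.16, adjusted p = 7.2e-05). The protein kinase gene AT3G07070 had 6.32, 6.27 and 6.39 TPM in ΔMP and 8.70, 8.99 and 9.52 TPM in Col-0 at 90 min, or −0.52 (SE 0.09, adjusted p = 0.00022).

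The other 10 were AT1G11655 (log2 fold change −1.52), AT1G52660 (−0.77), TET12 (−0.66), AT2G47530 (−0.57), RSH4 (−0.53), HA7 (−0.46), AT5G61350 (−0.43), AT1G38131 (−0.36), AT1G30870 (−0.31) and AT3G16800 (−0.22). Those of TET12, RSH4, HA7, AT1G38131 and AT3G16800 were not held throughout. TET12 was lost without ΔMP A (adjusted p = 0.052). RSH4 and HA7 were lost without ΔMP B or Col-0 B (up to 0.14 and 0.095). AT1G38131 was lost without ΔMP C or Col-0 C and with limma (up to 0.17), and it shares 76.1% of its 31-base words with AT1G38065, so its counts are uncertain. AT3G16800 was lost without ΔMP A or B or any 1 of the Col-0 libraries, and with limma (up to 0.19).

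In the comparison of AXR3-1 with ΔMP, which uses the same ΔMP libraries, the 7 members called higher in AXR3-1 were UCC3 (0.90), AT1G55290 (0.67), FRO4 (0.56), AT1G52660 (0.43), AT3G07070 (0.35), AT1G38131 (0.32) and AT1G23160 (0.31). Those calls held for UCC3 and FRO4 without each library in turn and with DESeq2 and limma. AT1G55290 was lost without ΔMP A (adjusted p = 0.054) and AT3G07070 without AXR3-1 C (0.082). AT1G52660 was lost without AXR3-1 A or C or ΔMP B, with limma and in the fit of the 90-min libraries alone (up to 0.28), and AT1G38131 without any 1 of the AXR3-1 libraries or of ΔMP A or C and with limma (up to 0.11). AT2G47530, an extensin-like wall protein gene, had 13.7, 13.0 and 15.8 TPM in AXR3-1, 13.6, 14.1 and 15.3 TPM in ΔMP, and 22.1, 20.9 and 22.0 TPM in Col-0 at 90 min, so both lines lay below Col-0. Its log2 fold change relative to the same Col-0 libraries was −0.62 in AXR3-1 (adjusted p = 0.00033) and −0.57 in ΔMP (adjusted p = 0.00024).

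**Figure D4:**
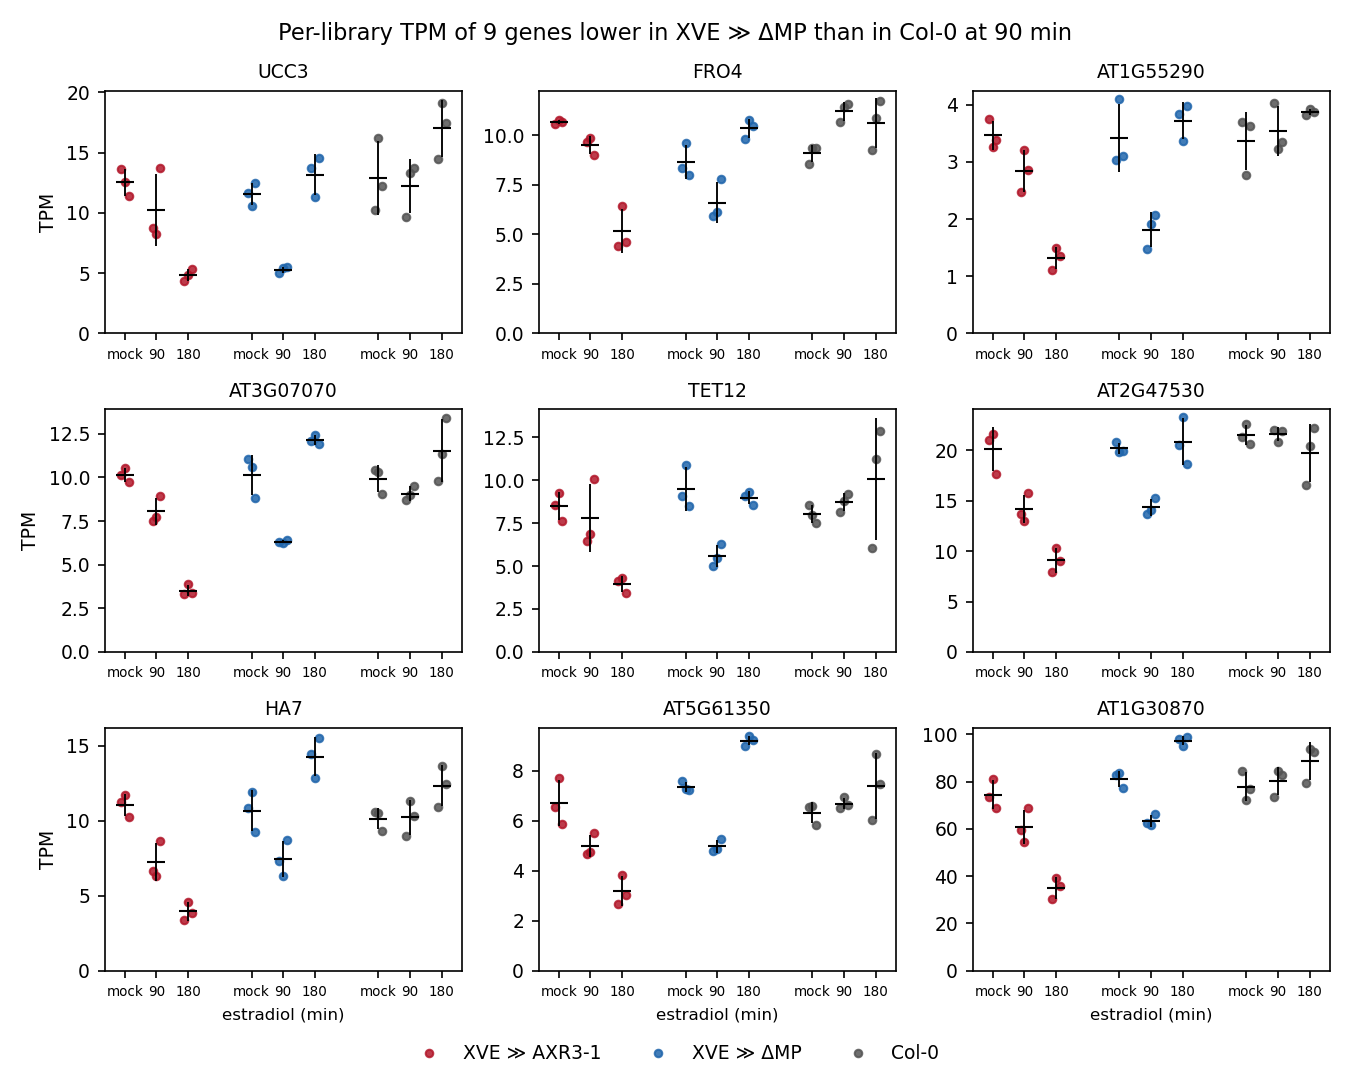
TPM of each library (points), with mean and SD of the 3 libraries (black), is plotted for 9 of the 14 members that were lower in XVE ≫ ΔMP than in Col-0 at 90 min, each panel with its own axis from 0. In ΔMP (blue) the values at 90 min lie below those at mock and at 180 min, as for UCC3 with 5.01 to 5.48 TPM at 90 min. In AXR3-1 (red) the lowest values are at 180 min. The rule that chose the genes set limits on the 180-min values of both lines.

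Members known from root hairs are AT5G61350 (ERU), a receptor-like kinase of hair tip growth, HA7 (AHA7), a proton pump of the plasma membrane, MOP10 (PRPL1), a proline-rich protein of hair elongation, SYP123, a syntaxin of the hair tip, and RSH4 (root hair specific 4). SYP123 and RSH4 were named after their values were seen. HA7 had 11.2, 11.7 and 10.2 TPM in the AXR3-1 mock, 6.67, 6.33 and 8.67 TPM at 90 min and 3.4, 4.61 and 3.82 TPM at 180 min. In ΔMP it had 10.8, 11.9 and 9.25 TPM in the mock, 7.29, 6.33 and 8.71 TPM at 90 min and 14.5, 12.9 and 15.5 TPM at 180 min. In Col-0 at 90 min it had 8.99, 11.3 and 10.3 TPM. The ΔMP values were thus below the mock at 90 min and above it at 180 min, and those of AXR3-1 kept going down.

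AT5G61350 had 6.55, 7.69 and 5.86 TPM in the AXR3-1 mock, 4.69, 4.76 and 5.5 TPM at 90 min and 2.66, 3.83 and 3.01 TPM at 180 min. In ΔMP it had 7.58, 7.27 and 7.22 TPM in the mock, 4.78, 4.85 and 5.27 TPM at 90 min and 9, 9.37 and 9.21 TPM at 180 min. In Col-0 at 90 min it had 6.49, 6.93 and 6.62 TPM, above every library of the other lines. In AXR3-1 relative to Col-0, the log2 fold change was −0.50 for HA7 (adjusted p = 0.010), −0.42 for AT5G61350 (adjusted p = 0.016), −0.35 for MOP10 (adjusted p = 0.027), −0.48 for RSH4 (adjusted p = 0.064) and −0.18 for SYP123 (adjusted p = 0.71). The calls of HA7 and AT5G61350 were lost without AXR3-1 A or B or Col-0 B, and that of AT5G61350 also with limma (adjusted p up to 0.088 and 0.098). That of MOP10 was lost without AXR3-1 A or B or Col-0 A or B and with limma (up to 0.15). In ΔMP relative to Col-0 MOP10 had −0.28 (adjusted p = 0.052) and SYP123 −0.32 (adjusted p = 0.19).

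The markers of trichoblasts, none of them a member and 4 of them among the genes raised by ΔMP, are given beside these genes. Summed over 7 markers, none at 0 in any group, the level was 261 to 321 TPM in the mock, 189 to 260 TPM at 90 min and 104 to 131 TPM at 180 min in AXR3-1. It was 286 to 328, 202 to 250 and 512 to 541 TPM at the same times in ΔMP, and 269 to 312, 274 to 330 and 314 to 412 TPM in Col-0. In ΔMP at 180 min the sum was thus above its mock. MOP10 stood at 1.03 times its mock, while HA7 and AT5G61350 were above theirs in every library, as given above. The rule capped every member at 133% of its mock in ΔMP and put no cap on the markers, so nothing is read from a contrast between them. At 90 min 4 of the 7 were lower in AXR3-1 than in Col-0, against 2.64% of all genes. In ΔMP relative to Col-0 3 were lower, against 4.25%, and 1, RSL4, was higher, against 5.19%. The 4 markers of hairless epidermal cells summed to 61.2 to 68.8 TPM in AXR3-1, 60.2 to 62.9 TPM in ΔMP and 55.6 to 65.8 TPM in Col-0 at 90 min, which overlap. At 180 min they summed to 97.2 to 106 TPM in ΔMP, against 61.7 to 69.98 TPM in its mock, and to 53.6 to 54.7 TPM in AXR3-1, against 56.8 to 60.8 TPM in its mock. A list of 6 green tissue genes, 1 of them at 0 in the 3 ΔMP libraries of 90 min, summed to 106 to 111 TPM in ΔMP, 56.2 to 64.9 TPM in AXR3-1 and 59.6 to 68.1 TPM in Col-0 at 90 min, and it was already 88.3 to 97.2 TPM in the ΔMP mock, against 57.6 to 67.9 TPM in the Col-0 mock. The part of these levels in the results was not tested.

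Of the wider root hair lists, 15 of 42 effector genes were lower in AXR3-1 than in Col-0 at 90 min, against 2.64% of all genes, and 19 were lower in ΔMP than in Col-0, against 4.25%. The median log2 fold changes were −0.28 and −0.37, and HA7 is the 1 member among the 42, while 9 belong to the genes raised by ΔMP. The member RSH4 is not among the 42, because the list entry RHS4 was matched by synonym to another gene, AT1G16440. Of 23 root hair regulators, 4 were lower and 1 was higher in AXR3-1, with AT5G61350 among the 4, and 3 were lower and 1 was higher in ΔMP. The shares of all genes called higher were 1.74% in AXR3-1 and 5.19% in ΔMP.

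A few members were at or above their mock level at 90 min in AXR3-1 and were reduced only at 180 min. MRN1, the synthase of the triterpene marneral, had 15.1, 13.0 and 11.4 TPM in the AXR3-1 mock, 12.2, 14.1 and 20.2 TPM at 90 min and 5.19, 8.54 and 6.56 TPM at 180 min. In Col-0 it had 14.3, 11.5 and 14.7 TPM in the mock and 9.35, 11.9 and 8.15 TPM at 90 min. It was called higher in AXR3-1 than in Col-0 at 90 min, with a log2 fold change of 0.66 (SE 0.16, adjusted p = 0.0083), while in Col-0 it stood at 0.736 of its mock. That call was lost without AXR3-1 C (log2 fold change 0.41) or Col-0 C (0.52, adjusted p up to 0.15). SP1L5, of a family that guides cortical microtubules, was named after its values were seen. It had 18.3, 17.5 and 18.9 TPM in the AXR3-1 mock, 21.4, 23.0 and 26.6 TPM at 90 min and 9.59, 11.1 and 6.81 TPM at 180 min. At 90 min its ratio to mock was 1.29 in AXR3-1 and 1.36 in Col-0, and the lines did not differ by the test (−0.18, adjusted p = 0.73).

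Counts over the lists below stand against 2.64% of all genes lower and 1.74% higher in AXR3-1 than in Col-0 at 90 min. Of the auxin lists, 8 of 27 Aux/IAA genes were lower in AXR3-1 than in Col-0 at 90 min, and 1, AXR3 (IAA17) itself, was higher. The reads of IAA17 include those of the induced transgene, so nothing is read from that call. IAA13 was among the 8. Of 14 ARF genes, 3 were lower (ARF10, ARF16 and ARF19). ARF10, the closest paralogue of ARF16, had a ratio of 0.53 in AXR3-1 and 2.07 in ΔMP at 180 min, which puts it among the genes raised by ΔMP, and was higher in ΔMP than in Col-0 at 90 min (0.31, adjusted p = 8.8e-05). ARF16 had 1.26 in ΔMP at 180 min. Of 25 auxin transport genes, 6 were lower, including WAG1 and WAG2. No gene on the auxin conjugation list was among the members, although 6 of 10 were lower at 90 min. Nor was any on the auxin synthesis list, where 1 of 15 was lower and 4 were higher. AT1G23160, the member of the GH3 family described above, is not on the conjugation list.

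Against the same shares of all genes (2.64% lower and 1.74% higher), 3 of 16 lateral root genes were lower, and of 20 ethylene genes 3 were lower and 1 was higher. Of 36 cell wall loosening genes 6 were lower and 4 were higher. Of 29 genes for uptake of nitrate, phosphate and iron 11 were lower and 2 were higher. The 30 cell division genes had a median log2 fold change of 0.07. None of these 5 lists held a member. The members AT1G52190, FRO4 and AT1G55290, described above, are not on the uptake list. Nor is CYCP4;1, a cyclin gene named after its values were seen, on the cell division list.

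Members near the limits of the rule differed little from genes that missed it. At the AXR3-1 limit of 0.56, AT2G16005 and AT3G48970 were inside at 0.559, and AT1G06330 (0.56001) and TCP14 (0.56019) were outside. At the upper ΔMP limit, IAA10 (1.3295) and PR-1-LIKE (1.327) were inside, with WAG2 (1.3352) and AT4G35200 (1.3353) outside. At the lower ΔMP limit, AT2G46690 and AT5G06190 (0.759 each) were inside, and ALD1 (0.733) and ZF1 (0.704) outside. In Col-0, AT5G54145 (0.761) and WRKY27 (0.767) were inside the lower limit with NF-YA7 (0.737) and NAC100 (0.724) outside. UCC3 (1.31) and TET12 (1.24) were inside the upper limit, with ATCG00660 (1.41) and AT3G14060 (1.44) outside. By mock level, AT1G11655 (2.14 TPM) and MES17 (2.62 TPM) were inside and FOLB1 (1.86 TPM) and AT3G04854 (1.82 TPM) outside. When each of the 18 libraries that the rule used was left out in turn, 30 of the 74 genes met the rule every time.

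Products of the members were of many kinds, as the roles above show. Their coding sequences had a median of 834 bases, against 1176 bases for all genes tested. They lay on all 5 nuclear chromosomes (19, 16, 12, 9 and 13 genes on chromosomes 1 to 5 among the 69 with an entry). Pairs within 20000 bases were RSH4 and AT1G30870, AT3G18170 and UMAMIT4, UCC3 and HA7, and AT4G23493 and SP1L5, the last 433 bases apart on the same strand. No 31-base word was shared with another gene in 44 of the 69, and more than 10% of the words in 4, of which CPT (21.3%, with AT2G23400) has not been named above.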

How the data were processed

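RNA-seq of 27 root tip libraries was used, 3 in each of 9 groups. The authors quantified reads with Salmon 1.3.0 against TAIR10 coding sequences, and deposited estimated counts and TPM per transcript. The deposited TPM are scaled to a fixed total per library, and the deposited estimated counts are not corrected for depth. Trimming is given as Trimmomatic in the submitters' processing notes and as Rcorrector and Trim Galore in the study's methods.

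TPM and counts were summed per locus. Counts were rounded and fitted with edgeR 4.0.16 (R 4.3.3, quasi-likelihood test, TMM, filterByExpr), with the 27 libraries fitted together and a coefficient for each group, and p-values were adjusted by Benjamini-Hochberg over 19530 genes. The study's threshold on the log2 fold change (1 in size) was tried as an alternative, beside DESeq2 1.42.0, limma 3.58.1 on log2(TPM + 0.5) and log2(TPM + 1), no TMM, no filter, only the 9 libraries of 90 min, the letter as a block, and each library left out. Scripts were tested on simulated data. Sequences and positions are from RefSeq TAIR10.1.

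Genes named are members on the fixed lists, the 10 with the highest mock level in AXR3-1, the 10 with a symbol and the lowest ratio at 180 min, the 10 with the lowest adjusted p against Col-0 at 90 min without overlap, those nearest each limit, and any higher at 90 min. Others are named as chosen after their values were seen. The members, lists and tests were chosen with earlier results of these data known.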

Additional observations from a re-analysis of the deposited data

How the results depend on the processing

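With wider limits (0.6 in AXR3-1, 70% to 143% of mock in the other lines) the rule took 140 genes, and with stricter limits (0.5, and 80% to 125%) it took 28, against 74. It took 85 with 0.1 and 70 with 1 TPM added, 76 with medians, 65 with CPM and 52 with TMM-scaled CPM, of which 68, 66, 54, 54 and 50 were among the 74, and 69 to 89 with 1 library left out. With a minimum log2 fold change of 1 in size, 1 member was lower in AXR3-1 than in Col-0 at 90 min (against 26), 3 were lower than in ΔMP (against 28), and 3 differed between ΔMP and Col-0 (against 19). Leaving out 1 library of 90 min gave 21 to 29, 23 to 28 and 16 to 19, with medians of −0.41 to −0.33 for AXR3-1 over Col-0. The other settings gave 25 to 29, 26 to 31 and 18 to 21. Apart from the minimum log2 fold change, calls kept under all alternatives numbered 18 of 27, 23 of 35 and 14 of 19 in the 3 comparisons. Over single genes and settings, 2583 values kept their side of the threshold, 99 lost the call and 48 gained it, and none of these changed direction past the threshold.

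The correlations of same-letter deviations between lines at 90 min were between −0.04 and 0.12, and the letters were not used to pair libraries in the main fit. What the letters mark is not stated, and low correlations cannot show that libraries of 1 letter shared no culture or batch. With the letter as a replicate block, 29 members were lower in AXR3-1 than in Col-0, 28 than in ΔMP, and 20 differed between ΔMP and Col-0. The median was −0.35. The calls of IAA10 and MLO15 against ΔMP were lost under the block.

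Low-count members limit the precision, as AT3G45242, with 3 read pairs over the AXR3-1 mock.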
